A study of Xenopus laevis with 46 samples.

Results

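The genes described here are the SoxE transcription factor genes sox8, sox9 and sox10 of Xenopus laevis. The frog genome holds 2 sets of chromosomes, named L (long) and S (short), so each gene has an .L and an .S copy. Every row of the count tables with one of these 3 gene names was taken, which gave 6 gene copies (sox8.L, sox8.S, sox9.L, sox9.S, sox10.L and sox10.S) of the 49281 genes listed. They were followed through 46 RNA sequencing libraries of wild type animal pole explants, the cap of pluripotent cells cut from the blastula, in 18 groups. In a first experiment embryos were kept from the 2-cell stage in IBET762 (IBET), in TSA or in the vehicle DMSO, each inhibitor with its own vehicle group, and explants were collected at stage 9 (late blastula) or stage 13 (early neurula) with 2 libraries per group. In a second experiment, with 3 libraries per group, explants came from uninjected embryos or from embryos injected with mRNA for Wnt8 and the BMP antagonist chordin (Wnt/Chrd), and were collected untreated at stage 9, or after IBET or DMSO from stage 9 onwards at stage 13 or stage 17 (late neurula). Uninjected explants become epidermis, and Wnt/Chrd explants are those the study calls neural crest-reprogrammed. IBET762 blocks the bromodomains with which BET proteins bind acetylated histones, and TSA inhibits histone deacetylases. Because the second experiment has no vehicle group at stage 9, stage and vehicle cannot be told apart when stage 13 is set against stage 9.

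SoxE proteins bind DNA through an HMG domain and activate transcription, mostly together with partner factors at shared enhancers. In Xenopus sox8, sox9 and sox10 are expressed in the forming neural crest, the migratory population at the border of the neural plate that gives rise to pigment cells, peripheral neurons and glia, and cartilage of the face. In mammals Sox9 is the master regulator of cartilage and Sox10 is needed for glia and melanocytes. Outside the crest, sox9 and sox10 also act in the otic placode.

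The libraries held 12902520 to 32022992 reads counted in genes, 54.3% to 82.8% of all reads in the count tables. Levels are given in CPM (the counts of a gene scaled to a common total of reads in genes), after scaling between libraries by TMM. Because the libraries are bulk RNA, fewer cells of a type and less RNA per cell cannot be told apart in any result. One library stood apart. In the Wnt/Chrd vehicle group at stage 13, library a had a summed level of 14 epidermis marker genes of 21575 CPM, against 3964 and 4767 CPM in libraries b and c, and a summed level of 12 neural crest marker genes of 705 CPM, against 1012 and 1056 CPM. Results that rest on this group are given with and without it where it moves them. The count tables name libraries by letters (a, b, c), which is how they are named here. Of the tissue markers, the neural crest list was at 2000 to 2297 CPM in Wnt/Chrd vehicle explants at stage 17 and at 89.7 to 172 CPM in uninjected ones, and the epidermis list at 13015 to 23230 CPM and at 32255 to 51784 CPM, so that epidermal transcripts were also plentiful in the explants labelled neural crest.

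sox10 was detected above a few reads in a single group. Wnt/Chrd vehicle explants at stage 17 held 6175, 2364 and 2545 reads of sox10.L in libraries a, b and c (246, 107 and 114 CPM) and 5409, 2108 and 1859 reads of sox10.S (216, 95.4 and 83.5 CPM). Uninjected vehicle explants of that stage held no sox10 read in any of the 3 libraries. Set against 3 counts over the empty group, sox10.L was at least 3186-fold higher and sox10.S at least 2695-fold higher in the Wnt/Chrd explants. No p-value is given for sox10 here or below, since its copies passed the filter on low counts (at least 10 reads at the median depth) through this group alone. Elsewhere in the series the gene was at the edge of detection. At stage 13 Wnt/Chrd vehicle explants held 14, 1 and 0 reads of sox10.L and 9, 0 and 0 reads of sox10.S, so that 23 of the 24 reads came from the library that stood apart. All other groups together held 5 reads of the gene, in libraries of embryos treated from the 2-cell stage, and every other library of the second experiment held none.

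sox8 rose from a low level to a high one, by edgeR's quasi-likelihood test with p-values adjusted over all genes tested. In Wnt/Chrd vehicle explants at stage 17 sox8.L stood at 740, 534 and 399 CPM and sox8.S at 338, 197 and 284 CPM. In uninjected vehicle explants the same copies stood at 1.22, 3.84 and 1.47 CPM and at 0.204, 0.353 and 0 CPM, far below every Wnt/Chrd library. sox8.L was 249.6-fold higher (log2 fold change 7.96 ± 0.55 SE, adjusted p = 4.6e-05). For sox8.S the fitted difference was 1332-fold (10.38 ± 0.60), with no p-value given because none of the uninjected libraries reached the count minimum. Uninjected library b held most of the few reads in that group, and without it the log2 fold changes were 8.65 and 11.21.

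sox9 rose as well. sox9.S was at 365, 382 and 405 CPM in Wnt/Chrd vehicle explants at stage 17 and at 0.561, 4.29 and 4.03 CPM in uninjected ones, a 126.9-fold difference (log2 fold change 6.99 ± 0.70 SE, adjusted p = 0.00026). sox9.L was at 48.9, 41.0 and 37.0 CPM and at 0.561, 1.19 and 0.907 CPM, a 46.6-fold difference (5.54 ± 0.33, adjusted p = 2.5e-05). At stage 17 the 3 copies that reached the count minimum in both groups were 3 of 3 higher in Wnt/Chrd explants, where 41.2% of all genes tested were called, 18.9% higher and 22.3% lower. sox8.S and both sox10 copies, which passed the filter through the Wnt/Chrd group alone, are not counted. In every comparison without that group sox10 held too few reads to be tested. None of the 3 calls was lost when any 1 library was left out.

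**Figure D1:**
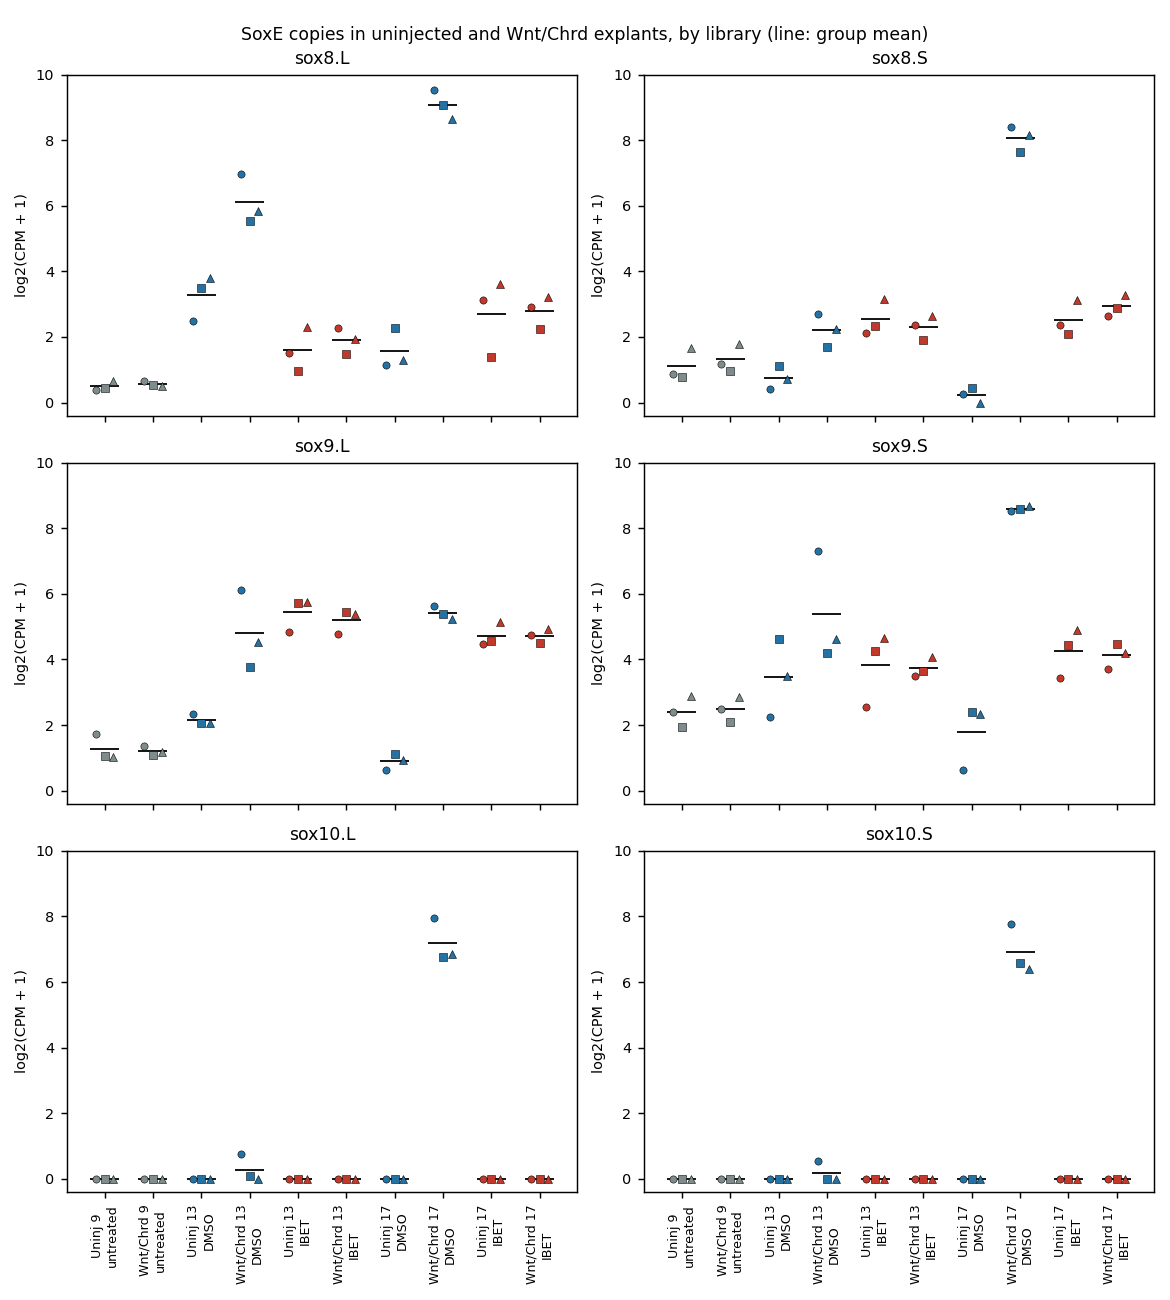
Levels of the 6 SoxE copies in uninjected and Wnt/Chrd explants, as log2(CPM + 1), in which each point is 1 library (circle a, square b, triangle c) and each line is the mean of the plotted values of a group; grey is untreated, blue vehicle and red IBET. The Wnt/Chrd vehicle libraries at stage 17 lie above every other group for sox8, sox9.S and sox10, and those of sox9.L overlap with the IBET groups at stage 13.

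Before stage 17 the induction was partial. At stage 9 no difference was detected: 0 of the 4 SoxE copies tested were called, as were 0.0244% of all genes tested. That share of all genes was larger with the library letters as a block. sox8.L was at 0.313 to 0.585 CPM in uninjected and at 0.406 to 0.588 CPM in Wnt/Chrd explants, and sox9.S at 2.86 to 6.41 and at 3.28 to 6.24 CPM. The 4 log2 fold changes lay between -0.14 and 0.38, each with an adjusted p of 1 and an unadjusted p of at least 0.53 in edgeR's test, and DESeq2 called 0 as well. The interval of the difference was widest for sox8.S, for which its lower end was -1.0.

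At stage 13, with vehicle, 2 of the 3 SoxE copies that reached the count minimum in both groups were higher in Wnt/Chrd explants, against 12% of genes called, 4.40% higher and 7.58% lower. sox8.L was at 123, 45.8 and 56.2 CPM and at 4.65, 10.3 and 12.9 CPM without Wnt/Chrd, 8.30-fold higher (log2 fold change 3.05 ± 0.54 SE, adjusted p = 0.016). sox9.L was at 68.9, 12.5 and 22.2 CPM against 4.01, 3.2 and 3.17 CPM, 10.2-fold higher (3.36 ± 0.66, adjusted p = 0.022). sox8.S was low throughout, at 5.44, 2.25 and 3.75 CPM against 0.321, 1.14 and 0.660 CPM (2.46 ± 0.61 as fitted). It passed the filter through the Wnt/Chrd group alone, so no p-value is given for it. sox9.S did not pass: its levels of 157, 17.3 and 23.9 CPM overlapped with 3.74, 23.4 and 10.4 CPM in uninjected explants (2.43 ± 1.01, adjusted p = 0.18). These calls were less firm than those at stage 17. Without the Wnt/Chrd library a the log2 fold change was 2.45 for sox8.L and 2.32 for sox9.L, both still called, and the group means were 51.0 ± 7.4 and 17.4 ± 6.9 CPM (SD, n = 2). The call of sox8.L was lost without uninjected library b or c (adjusted p = 0.056 and 0.053), and that of sox9.L without any 1 of the uninjected libraries (adjusted p 0.080 to 0.097).

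The stages themselves were also compared within each kind of explant. From stage 9 to stage 13, 3 of 4 SoxE copies rose in Wnt/Chrd explants (62.5% of genes called, 30.8% higher and 31.7% lower). sox8.L rose 168.9-fold (log2 fold change 7.40 ± 0.51 SE, adjusted p = 6.6e-05), sox9.L 28.4-fold (4.83 ± 0.69, adjusted p = 0.00092) and sox9.S 15.2-fold (3.93 ± 0.89, adjusted p = 0.0069). Without library a of Wnt/Chrd at stage 13 the last of these was 2.31 on the log2 scale and that of sox9.L 3.89. sox8.S did not pass (1.43 ± 0.54, adjusted p = 0.051), but did with the library letters as a block (adjusted p = 0.047). In uninjected explants sox8.L rose 23.1-fold over the same interval (4.53 ± 0.55, adjusted p = 2e-04) and sox9.L 2.42-fold (1.28 ± 0.47, adjusted p = 0.039), 2 of 4 copies where 71.3% of genes were called, 35.9% higher and 35.4% lower. The call of sox9.L was lost without any 1 library other than library a of stage 9 (adjusted p up to 0.12), and with scaling by library totals alone, which moved the median of all genes by -0.85, its log2 fold change was 0.42 (adjusted p = 0.44). sox9.S did not pass (1.54 ± 0.65, adjusted p = 0.063), but did without library a of stage 13 (1.93, adjusted p = 0.011), and sox8.S was at -0.73 ± 0.68 (adjusted p = 0.36).

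Between stages 13 and 17 sox8.L was called lower in one kind of explant and higher in the other. In uninjected vehicle explants 2 of the 3 copies tested fell (37.7% of genes called, 18.1% lower and 19.7% higher). sox8.L fell 4.38-fold (log2 fold change -2.13 ± 0.56 SE, adjusted p = 0.023), a call lost without library b or c of stage 13 or library a or c of stage 17 (adjusted p 0.061 to 0.082; -2.79 without library b of stage 17), and sox9.L fell 3.95-fold (-1.98 ± 0.42, adjusted p = 0.012). For sox9.S the change was -2.12 ± 0.84 with an adjusted p of 0.079, 0.0033 with the library letters as a block and 0.039 without library a of stage 13. sox8.S held too few reads to be tested. In Wnt/Chrd vehicle explants 2 of the 4 sox8 and sox9 copies rose (13.7% of genes called, 6.46% higher), sox8.L 7.25-fold (2.86 ± 0.42, adjusted p = 0.024) and sox8.S 69.2-fold (6.11 ± 0.40, adjusted p = 0.011). sox9.L was not called, at 0.27 ± 0.56 (adjusted p = 0.75), and sox9.S was at 2.53 ± 0.80 (adjusted p = 0.075; 0.030 with the block). Without any 1 library other than the stage 13 library a none of these 4 copies was called (adjusted p from 0.057), and at most 2 of all genes were. Without stage 13 library a 4 of 4 were called, sox9.L at 1.21 and sox9.S at 4.14, among 8665 genes. In Wnt/Chrd explants kept in IBET none of the 4 copies tested was called between the stages (0.00476% of genes called, and far more with the library letters as a block). Their log2 fold changes lay between -0.54 for sox9.L and 1.09 for sox8.L, of which sox8.L had an unadjusted p of 0.040 and an adjusted p of 0.18, and 0.025 with the block, while DESeq2 called 0 copies.

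IBET from stage 9 lowered sox8 and sox9 in Wnt/Chrd explants at stage 17, where 4 of 4 copies were lower and 50.1% of genes were called, 25.8% lower and 24.4% higher. sox10 had no read in any of the 3 IBET libraries, at least 3311-fold lower for sox10.L and at least 2801-fold lower for sox10.S against the floor of 3 counts. sox8.L was at 6.52, 3.68 and 8.27 CPM with IBET, 85.3-fold lower than with vehicle (log2 fold change -6.41 ± 0.40 SE, adjusted p = 4.7e-05). sox8.S was at 5.25, 6.43 and 8.62 CPM, 37.7-fold lower (-5.24 ± 0.31, adjusted p = 4.4e-05). sox9.S was at 12.1, 21.3 and 17.5 CPM, 21.2-fold lower (-4.41 ± 0.28, adjusted p = 4.8e-05). None of these libraries reached the lowest vehicle library, and the libraries of 60.4% of all genes tested likewise did not overlap. sox9.L behaved differently: it kept 25.7, 21.8 and 29.6 CPM, below the vehicle libraries by 1.55-fold (-0.63 ± 0.20, adjusted p = 0.029), and that call was lost without vehicle library a or b or IBET library a or b (adjusted p 0.056 to 0.10). The neural crest marker list fell with them, to 229 to 465 CPM from 2000 to 2297 CPM. The epidermis list fell too, to 848 to 2393 CPM from 13015 to 23230 CPM. The neural progenitor list rose, to 2490 to 3624 CPM from 460 to 916 CPM. The part of these lists in the SoxE result was not tested.

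At stage 13 only sox8.L of the 4 copies tested was called lower with IBET in Wnt/Chrd explants (15.3% of genes called, 8.60% lower and 6.71% higher). It stood at 3.83, 1.78 and 2.84 CPM, 26.3-fold below vehicle (log2 fold change -4.72 ± 0.55 SE, adjusted p = 0.0038), and no library left out ended this call. sox9.S was at 10.3, 11.5 and 15.7 CPM and did not pass (-2.40 ± 0.79, adjusted p = 0.072), though it did without vehicle library b (-2.88, adjusted p = 0.047), and without vehicle library a the value was -0.75. sox8.S was at 4.09, 2.74 and 5.23 CPM (0.07 ± 0.50) and sox9.L at 26.7, 42.7 and 40.8 CPM (0.08 ± 0.58), both within the spread of the vehicle libraries (adjusted p = 0.93 each). For sox9.L that spread rests on vehicle library a, and every IBET library lay above vehicle libraries b and c (12.5 and 22.2 CPM). Without vehicle library a the vehicle mean of sox9.L was 17.4 ± 6.9 CPM (SD, n = 2). With 1 library left out its log2 fold change ranged from -0.34 to 1.05. The 15 and 9 reads of sox10.L and sox10.S in the vehicle group were matched by none with IBET, at least 4.44-fold and 2.66-fold lower, which rests on library a.

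In uninjected explants the same treatment raised sox9.L. At stage 13 sox9.L stood at 27.6, 51.4 and 53.4 CPM with IBET against 4.01, 3.2 and 3.17 CPM with vehicle, 13.3-fold higher (log2 fold change 3.73 ± 0.35 SE, adjusted p = 0.00013). sox8.S stood at 3.31, 4.02 and 7.96 CPM, 7.38-fold higher as fitted (2.88 ± 0.60). It passed the filter through the IBET group alone, so no p-value is given for it. sox8.L went the other way, at 1.82, 0.942 and 3.95 CPM, 3.97-fold lower (-1.99 ± 0.59, adjusted p = 0.023), a call lost without vehicle library b or c or IBET library a or b (adjusted p 0.052 to 0.072; -2.67 without IBET library c). sox9.S was at 4.87, 18 and 24.4 CPM, which overlapped with vehicle (0.36 ± 0.71, adjusted p = 0.69). Of the 3 copies that reached the count minimum in both groups 1 was thus higher and 1 lower, among 48.1% of genes called, 22.9% higher and 25.2% lower. Other transcripts moved as well: the neural progenitor marker list summed to 2369 to 2987 CPM with IBET and to 111 to 187 CPM with vehicle, the epidermis list to 860 to 2763 and to 19354 to 34591 CPM, and the notochord and cartilage list to 20.7 to 49.7 and to 4.86 to 18.7 CPM. In that last list col2a1.L, acan.L, matn1.S and shh.S had no read with IBET, and col2a1.S, matn1.L and matn1.S had none with vehicle. Reads in genes were 58.9% to 64.4% of all reads with IBET and 71.8% to 74.0% with vehicle. The part of these in the SoxE values was not tested.

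At stage 17, IBET in uninjected explants raised both sox9 copies, 2 of the 3 copies that reached the count minimum in both groups (47.8% of genes called, 22.0% higher). sox9.L was at 21.2, 22.6 and 34.1 CPM, 29.9-fold above vehicle (log2 fold change 4.90 ± 0.42 SE, adjusted p = 7.9e-05). sox8.S was at 4.19, 3.22 and 7.75 CPM, 26.3-fold above vehicle as fitted (4.72 ± 0.83; 5.53 without vehicle library b), where no vehicle library reached the count minimum and no p-value is given. sox9.S was at 9.73, 20.6 and 28.6 CPM, 6.84-fold above vehicle (2.77 ± 0.73, adjusted p = 0.015). sox8.L was at 7.66, 1.61 and 11.3 CPM and did not pass (1.68 ± 0.72, adjusted p = 0.087), though it did without IBET library b (2.13, adjusted p = 0.020). sox10 was not detected, with 0 reads in these 3 libraries and in their vehicle libraries. The neural crest marker list did not rise with these copies: it summed to 13.8 to 91.1 CPM with IBET and to 89.7 to 172 CPM with vehicle, whereas the neural progenitor list stood at 655 to 2899 CPM and at 25.6 to 64.2 CPM. The part of either in the SoxE values was not tested.

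Under IBET no difference in SoxE between the kinds of explant was detected. Of the 4 copies tested, 0 differed between Wnt/Chrd and uninjected explants at stage 13 (0.0620% of genes called) and 0 at stage 17 (0.225% of genes called, 0.0144% lower). At stage 17 the log2 fold changes were -0.13 for sox8.L, 0.45 for sox8.S, 0.00 for sox9.L and -0.20 for sox9.S, each with an adjusted p of 1 and an unadjusted p of at least 0.31. At stage 13 they lay between -0.30 and 0.38, with unadjusted p-values of at least 0.51, and DESeq2 called 0 copies at either stage. For sox9.L at stage 17 the 95% interval began at -0.61, while for sox8.L it began at -1.60, so that differences up to that size are within what 3 libraries per group allow.

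Whether the IBET effect itself differed between Wnt/Chrd and uninjected explants was tested in 1 fit of the 4 groups. At stage 17 it differed for sox8.L (-8.12 on the log2 scale), sox9.L (-5.56) and sox9.S (-7.20), where 12.9% of genes were called and 5.13% lower. For sox8.S, under the count minimum in every uninjected vehicle library, it was -9.96. Without library b of the uninjected vehicle group the values were -8.81 for sox8.L and -10.8 for sox8.S. At stage 13 it differed for sox9.L (-3.59 ± 0.69 SE, adjusted p = 0.022; 2.24% of genes called), and this was lost without uninjected vehicle library a or c, uninjected IBET library b or c or any 1 of the Wnt/Chrd IBET libraries (adjusted p 0.055 to 0.078; -2.73 without Wnt/Chrd vehicle library a). sox10 could not be tested in this way, because several groups held no read of it.

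**Figure D2:**
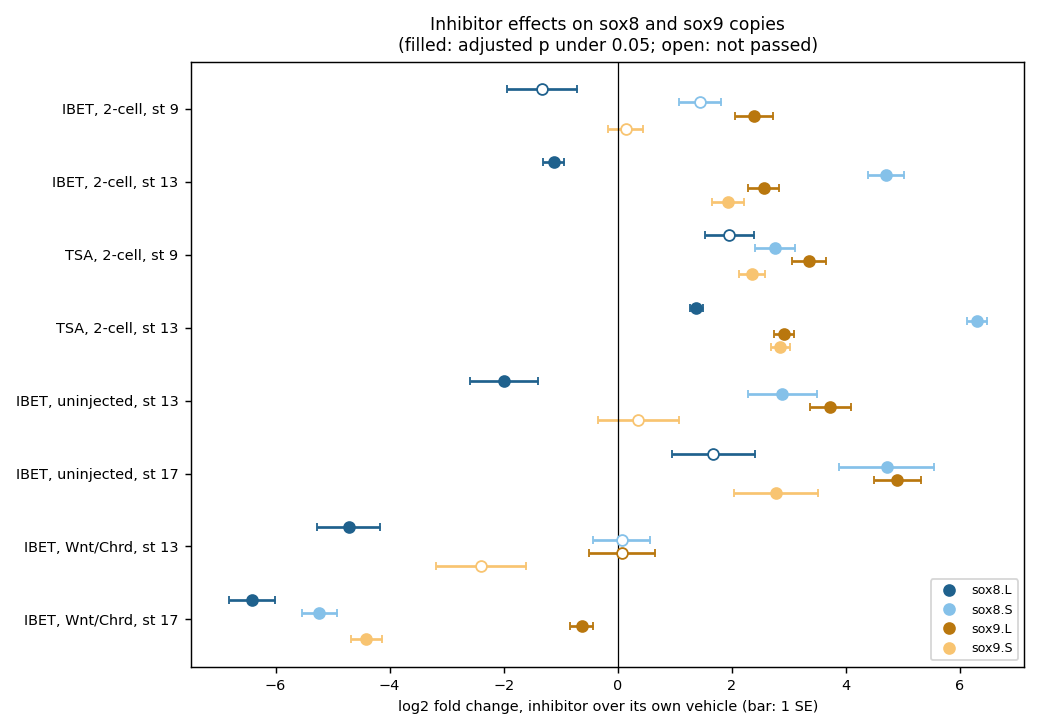
Log2 fold change of each sox8 and sox9 copy with IBET or TSA over its own vehicle in the 8 comparisons, with bars of 1 SE; filled points passed an adjusted p of 0.05 and open points did not. With TSA and, other than for sox8.L, with IBET from the 2-cell stage the points lie right of 0, and in Wnt/Chrd explants at stage 17 they lie left of 0, sox9.L nearest to it at -0.63.

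In the first experiment, in which embryos were treated from the 2-cell stage and no Wnt/Chrd was injected, IBET changed the sox8 copies in opposite directions. At stage 13 sox8.L stood at 36.4 and 33.7 CPM with vehicle and at 13.8 and 17.7 CPM with IBET, 2.18-fold lower (log2 fold change -1.13 ± 0.19 SE, adjusted p = 0.0027). sox8.S stood at 1.18 and 0.687 CPM with vehicle and at 27.0 and 21.6 CPM with IBET, 26.1-fold higher as fitted (4.71 ± 0.32). It passed the filter through the IBET group alone, since 1 of its vehicle libraries lay under the minimum, and no p-value is given for it. The IBET and vehicle libraries did not overlap for either copy, as they did not for 81.0% of all genes tested. Both sox9 copies rose, sox9.L from 8.43 and 5.91 CPM to 48.9 and 34.5 CPM (5.90-fold, 2.56 ± 0.27, adjusted p = 0.00049), and sox9.S from 31.1 and 19.2 CPM to 111 and 78.5 CPM (3.82-fold, 1.93 ± 0.28, adjusted p = 0.0016). At this stage 56.7% of all genes tested were called, 27.4% higher and 29.3% lower, beside 2 SoxE copies higher and 1 lower of the 3 that reached the count minimum in both groups. No call was lost with any 1 library left out. The epidermis marker list summed to 4091 to 4645 CPM with IBET and to 18066 to 22583 CPM with vehicle and the neural progenitor list to 2057 to 2157 and to 192 to 308 CPM. The mesoderm list summed to 12.6 to 23.6 CPM with IBET and to 87.9 to 99.3 CPM with vehicle. The TSA vehicle libraries of this stage held 1.74 to 2.81 CPM of it. The endoderm list summed to 58.2 to 63.8 CPM with IBET and to 164 to 176 CPM with vehicle. The part of these lists in the SoxE values was not tested.

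At stage 9 the only SoxE copy called with IBET was sox9.L, at 5.89 and 7.61 CPM against 0.937 and 1.5 CPM with vehicle (5.26-fold higher, log2 fold change 2.40 ± 0.33 SE, adjusted p = 0.041), where 2.37% of genes were called and 0.191% higher. It was lost without either IBET library (adjusted p = 0.055 and 0.080). sox8.S was at 3.96 and 6.70 CPM against 2.16 and 1.59 CPM (1.44 ± 0.37, adjusted p = 0.19) and sox8.L at 0.527 and 1.47 CPM against 1.64 and 3.18 CPM (-1.33 ± 0.61, adjusted p = 0.71). sox9.S stood at 5.76 and 9.51 CPM beside 7.45 and 5.80 CPM (0.14 ± 0.31, adjusted p = 1).

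TSA raised sox8 and sox9 at both stages. At stage 13 it raised 4 of 4 copies tested (72.7% of genes called, 36.9% higher). sox8.S went from 1.12 and 0.857 CPM to 80 and 75.9 CPM, 78.6-fold (log2 fold change 6.30 ± 0.17 SE, adjusted p = 1.8e-07), the largest effect of either inhibitor on a SoxE copy upwards. sox9.L went from 4.47 and 3.90 CPM to 33.9 and 28.8 CPM (7.53-fold, 2.91 ± 0.17, adjusted p = 3.6e-06) and sox9.S from 7.49 and 10.2 CPM to 64.5 and 61.7 CPM (7.2-fold, 2.85 ± 0.17, adjusted p = 3.9e-06). sox8.L, already at 24.3 and 24.0 CPM with vehicle, reached 65.3 and 58.9 CPM (2.59-fold, 1.37 ± 0.11, adjusted p = 2e-05). sox10 stayed at 1 read of sox10.S in 1 TSA library and 1 in 1 vehicle library. Cell type markers moved with TSA too. The epidermis list summed to 1372 to 1572 CPM with TSA and to 21675 to 23206 CPM with vehicle, the placode list to 36.1 to 39.5 and to 423 to 470 CPM, the neural progenitor list to 703 to 781 and to 101.7 to 111.4 CPM, and the mesoderm list to 44.4 to 59.2 and to 1.74 to 2.81 CPM, with both myf5 and both msgn1 copies at 0 in either group. The neural crest list was at 27.8 to 38.3 CPM with TSA and at 64.6 to 78.8 CPM with vehicle. Reads in genes were 63.9% to 65.4% with TSA and 74.7% to 75.3% with vehicle, and the part of these in the SoxE values was not tested.

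At stage 9 TSA raised 3 of 4 copies (2.02% of genes called, 1.04% higher and 0.979% lower). sox9.L stood at 11.7 and 18.1 CPM against 1.30 and 1.53 CPM (10.2-fold, log2 fold change 3.35 ± 0.30 SE, adjusted p = 0.017). sox9.S stood at 51.2 and 75.3 CPM against 12.9 and 11.1 CPM (5.13-fold, 2.36 ± 0.23, adjusted p = 0.019), and sox8.S at 11.3 and 20.8 CPM against 2.31 and 2.34 CPM (6.72-fold, 2.75 ± 0.35, adjusted p = 0.033). sox8.L stood at 9.01 and 20.5 CPM against 3.78 and 3.64 CPM and did not pass (1.96 ± 0.43, adjusted p = 0.13), though it did without TSA library a (2.44, adjusted p = 0.0015). The TSA and vehicle libraries did not overlap for any of these copies, and for 32.3% of all genes tested. The mesoderm list stood at 71.1 to 76.4 CPM with TSA and at 3.41 to 4.99 CPM with vehicle, and its part was not tested.

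**Figure D3:**
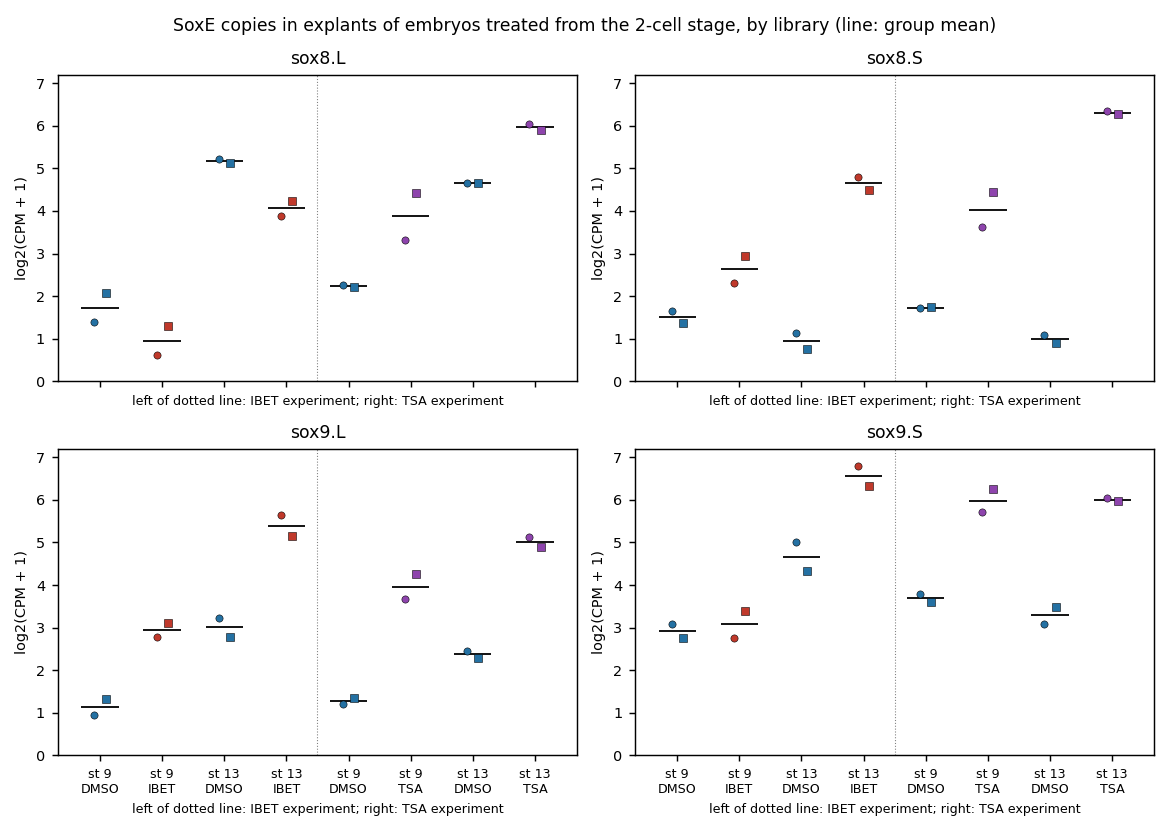
Levels of sox8 and sox9 copies, as log2(CPM + 1), in explants of embryos treated from the 2-cell stage; each point is 1 library (circle a, square b), each line the mean of the plotted values of a group, blue vehicle, red IBET and purple TSA. The sox8.S panel shows vehicle libraries at stage 13 near 1 CPM beside 21.6 to 27.0 CPM with IBET and 75.9 to 80 CPM with TSA.

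The inhibitors were then compared with each other, as the difference of their effects in 1 fit of 4 groups at each stage. For sox8.S 1 of the 2 IBET vehicle libraries of stage 13 reached the count minimum. At stage 13 the IBET effect lay below the TSA effect for both sox8 copies (2 of 4 copies, 26.4% of genes called). The difference was -2.53 ± 0.21 (SE) on the log2 scale for sox8.L (adjusted p = 4.9e-05) and -1.62 ± 0.39 for sox8.S (adjusted p = 0.012, and 0.12 without library a of the IBET vehicle group, where it was -1.18). For sox9.L it was -0.38 ± 0.32 (adjusted p = 0.41), with an interval that began at -1.09, and for sox9.S -0.94 ± 0.35 (adjusted p = 0.071, and 0.016 without library b of the IBET vehicle group or 0.041 without IBET library a). At stage 9 no SoxE copy differed between the inhibitors at this threshold (0.963% of genes called). There sox9.S had -2.20 ± 0.40 (unadjusted p = 0.00079, adjusted p = 0.066) and sox8.L -3.27 ± 0.79 (unadjusted p = 0.0038, adjusted p = 0.17), 3 of 4 copies had an unadjusted p under 0.05, and DESeq2 called both of these. The vehicle groups of the inhibitors were not alike in every respect: the mesoderm marker list summed to 87.9 to 99.3 CPM in the IBET vehicle libraries at stage 13 and to 1.74 to 2.81 CPM in the TSA vehicle libraries, and its part in these differences was not tested.

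The growth of the effects between stages was tested in the same manner. In the IBET series from the 2-cell stage, 1 of the 2 vehicle libraries of stage 13 reached the count minimum for sox8.S. The IBET effect from the 2-cell stage was larger at stage 13 than at stage 9 for sox8.S, by 3.23 ± 0.52 on the log2 scale (adjusted p = 0.0028), and for sox9.S, by 1.75 ± 0.45 (adjusted p = 0.019, lost without library a of the vehicle group at stage 9, library b of that at stage 13 or IBET library a of stage 13, adjusted p 0.051 to 0.064), 2 of 4 copies where 30.2% of genes were called. The TSA effect was larger at stage 13 for sox8.S, by 3.46 ± 0.44 (adjusted p = 0.00028; 1 of 4 copies, 47.7% of genes called). Without TSA library a of stage 9 it was also called smaller for sox8.L (-1.16) and sox9.L (-0.82). In Wnt/Chrd explants the IBET effect from stage 9 was more negative at stage 17 than at stage 13 for sox8.S, by -5.38 ± 0.52 (adjusted p = 0.0037; 0.346% of genes called). For sox8.L that difference was -1.77 ± 0.60 (adjusted p = 0.17, and 0.048 with the library letters as a block). Without Wnt/Chrd vehicle library a of stage 13, 4 of 4 copies were called, from -1.73 for sox9.L to -3.71 for sox9.S among the 3 added.

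The copies of a gene did not keep a fixed ratio. Shares are of the reads counted on either copy, not corrected for length, and reads that fit both copies equally were not counted. In the second experiment the .L share of sox8 reads was 27.3% ± 5.99 (SD, n = 3) in uninjected and 25.8% ± 10.1 in Wnt/Chrd explants at stage 9, and 92.9% ± 2.6 and 94.9% ± 1.05 with vehicle at stage 13. At stage 17 it was 92.4% ± 7.18 in uninjected explants, on 149 reads of both copies in all, and 66.7% ± 7.52 in Wnt/Chrd explants on 58361 reads. With IBET from stage 9 it lay between 29.2% ± 8.95 (uninjected, stage 13) and 52.5% ± 16.8 (uninjected, stage 17). For sox9 the share moved the other way with IBET. It was 29.1% ± 20.4 and 40.3% ± 8.96 with vehicle at stage 13 in uninjected and Wnt/Chrd explants and 75.9% ± 8.32 and 74.4% ± 3.82 with IBET. At stage 17 it was 9.96% ± 1.73 in Wnt/Chrd vehicle explants, the lowest of the second experiment, and 60.5% ± 8.93 with IBET.

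As the mean change over the 4 pairs of groups, IBET moved the log2 ratio of .L to .S reads by -3.67 for sox8 and by 2.74 for sox9, with the same sign in 4 of 4 pairs for each gene. These shifts are a description with no test. In the first experiment the .L share of sox8 at stage 13 was 97.4% and 96.1% in the vehicle groups, 39.5% ± 7.89 (SD, n = 2) with IBET and 44.3% ± 0.840 with TSA. That of sox9 was 22.5% ± 1.57 and 30.6% ± 0.0728 with vehicle and IBET, and 32.5% ± 6.84 and 33.2% ± 1.86 with vehicle and TSA. At stage 9 the .L share of sox8 was 54.9% ± 16.6 and 61.5% ± 0.829 in the IBET and TSA vehicle groups, higher than in the untreated groups of the second experiment at that stage. It was 14.9% ± 4.40 with IBET and 47.0% ± 3.78 with TSA. That of sox9 was 15.9% ± 6.66 and 47.5% ± 4.33 with vehicle and IBET, and 10.7% ± 2.13 and 19.0% ± 0.512 with vehicle and TSA. The sox8 values of stage 9 with vehicle rest on 192 and 301 reads of both copies. The sox10 copies were near parity in the one group that expressed them, with 54.7% ± 2.72 of reads on sox10.L.

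Scaling mattered for directions over all genes. By library totals alone the median log2 fold change of all genes moved by 0.59 for TSA at stage 13, by 0.24 for Wnt/Chrd against uninjected explants at stage 17 and by -0.85 for stage 13 against stage 9 in both kinds of explant. The share of calls that were higher moved with it, from 50.8% to 68.9%, from 45.9% to 59.2%, and from 50.3% to 33.1% (uninjected) and 49.3% to 30.6% (Wnt/Chrd). It went from 47.2% to 74.3% for stage 17 against stage 13 in Wnt/Chrd vehicle explants. Of the differences of effects, it went from 52.4% to 21.6% for IBET less TSA at stage 13, from 42.8% to 70.7% for TSA at stage 13 less stage 9, and from 60.1% to 48.9% for IBET in Wnt/Chrd less uninjected explants at stage 17. For IBET in uninjected explants the median moved by 0.14 at stage 13 and 0.16 at stage 17, and for stage 17 against 13 in Wnt/Chrd explants with IBET by 0.20, where the share higher went from 0% of 1 call to 84.5%, and to 52.6% with DESeq2. DESeq2 moved the share for Wnt/Chrd against uninjected explants with IBET from 100% to 86.1% at stage 13 and from 93.6% to 43.6% at stage 17. Every SoxE copy called in these comparisons kept its direction, and the sox9.L call from stage 9 to 13 given above was the one lost.

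At stage 17 the libraries of Wnt/Chrd and uninjected vehicle explants did not overlap for 54.9% of all genes tested, 27.7% higher. No such share of all genes is given for the order over all 18 groups. That order spans separate experiments, whose vehicle explants without Wnt/Chrd differed at stage 13. There sox8.L was at 4.65 to 12.9 CPM in the second experiment, 33.7 to 36.4 CPM in the IBET series and 24.0 to 24.3 CPM in the TSA series. Treatment and experiment cannot be told apart between groups of separate experiments. Ordered over all 18 groups, the Wnt/Chrd vehicle group at stage 17 was highest for 5 of the 6 copies and did not overlap with the next group for any of the 5. The next after it were the Wnt/Chrd vehicle group at stage 13 for sox8.L, at 75.0 ± 41.8 CPM (SD, n = 3), whose libraries overlapped with those of the TSA group at stage 13 at 62.1 ± 4.47 CPM (n = 2), and the TSA group at stage 13 for sox8.S, at 77.9 ± 2.96 CPM. For sox9.S the next were IBET from the 2-cell stage at stage 13 (94.6 ± 22.7 CPM) and the Wnt/Chrd vehicle group at stage 13 (66.0 ± 78.7 CPM, or 20.6 ± 4.64 CPM without library a), which overlapped. sox9.L was the exception. Its highest means were 44.1 ± 14.4 CPM in uninjected explants with IBET at stage 13, 42.3 ± 6.03 CPM in Wnt/Chrd vehicle explants at stage 17 and 41.7 ± 10.2 CPM with IBET from the 2-cell stage, and each of the first 7 groups overlapped with the next. Every copy of sox8 and sox9 was lowest either at stage 9 or in uninjected vehicle explants at stage 17.

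The genes that place SoxE in its setting were read from lists. Of 24 copies of neural plate border genes, 23 were tested at stage 17, and 18 were higher and 1 lower in Wnt/Chrd than in uninjected vehicle explants, with a median log2 fold change of 1.83, against 0.0050 over all genes (18.9% of all genes tested higher and 22.3% lower). pax3.L, a paired box factor that acts upstream of snai2 and foxd3, stood at 448 ± 237 CPM against 0.0317 ± 0.0277 CPM (SD, n = 3). The counts of the lists here and below include such copies. No p-value is given for a copy whose mean in a group lay under the count minimum. At stage 13, 14 of 23 were higher and none lower (15 and 0 without library a), where 4.40% of all genes were higher. Among them was lmx1b.1.L, a LIM homeobox factor picked by its adjusted p in this comparison (80.3 against 0.0630 CPM). With IBET in Wnt/Chrd explants at stage 17 the border list split, with 9 higher and 8 lower of 23 (24.4% of all genes higher and 25.8% lower). pax3.L was at 196 ± 81.1 CPM with IBET and did not pass (adjusted p = 0.079), while lmx1b.1.L fell to 4.93 CPM from 100.4 CPM (adjusted p = 0.00011).

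Of 18 copies of other neural crest specifiers, 14 were higher and 1 lower at stage 17 in Wnt/Chrd vehicle explants (median 5.06), and 15 were lower and none higher with IBET (median -4.72). Of all genes 18.9% were higher in the first comparison and 25.8% lower in the second. snai2.L, a repressor of the Snail family used as a neural crest marker, went from 11.1 ± 4.83 CPM in uninjected to 711 ± 73.3 CPM in Wnt/Chrd explants (adjusted p = 3.1e-05). With IBET it stood at 0.795 ± 0.489 CPM. tfap2e.S, an AP-2 factor, stood at 0.268, 196 and 0.469 CPM in the same groups, and foxd3.S, a forkhead factor, at 0, 100.7 and 0.289 CPM. snai1.L, in contrast, still stood at 98.2 ± 16.1 CPM with IBET, down from 241 ± 16 CPM (log2 fold change -1.22, adjusted p = 0.00097). At stage 13, 6 of 13 were higher and none lower in Wnt/Chrd vehicle explants (5 and 2 without library a).

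SoxE partners and modifiers were a list of 27 copies: the SoxD genes, the SUMO pathway, which modifies SoxE proteins, the ubiquitin ligase subunit fbxw7, LIM-only cofactors and the acetyltransferases crebbp and ep300. At stage 17, 7 were higher and 5 lower of 27 in Wnt/Chrd vehicle explants (median 0.44) and 3 higher and 8 lower of 26 with IBET. Of all genes tested 41.2% and 50.1% were called in these comparisons, so that the list was near or under that share. sox13.S, a SoxD gene, rose from 22.0 ± 4.2 to 89.8 ± 14 CPM with Wnt/Chrd (log2 fold change 2.02, adjusted p = 0.00023) and stood at 29.9 ± 10.2 CPM with IBET (-1.51, adjusted p = 0.0021). lmo4.2.S, a LIM-only cofactor, was lower in Wnt/Chrd than in uninjected explants, at 26.5 ± 9.84 against 137.7 ± 24.6 CPM (-2.38, adjusted p = 0.00092). In uninjected explants at stage 13 IBET lowered 13 and raised 2 of 27 (median -1.0), where 25.2% of all genes were lower and 22.9% higher (median 0.053). TSA from the 2-cell stage lowered 18 and raised 4 of 26 at that stage (median -1.14), where 35.8% of all genes were lower and 36.9% higher (median 0.12).

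Genes known from other vertebrates as SoxE targets in pigment cells, glia and cartilage were mostly low or not called higher. Of 36 copies listed, 12 were expressed well enough to be tested at stage 17, and 1 was higher and 4 lower in Wnt/Chrd vehicle explants (median -0.55), near the 41.2% of all genes called. Those lower included kit.L, the receptor tyrosine kinase of melanocyte precursors, at 3.48 ± 1.22 against 189 ± 68.3 CPM (log2 fold change -5.78, adjusted p = 7.4e-05). They also included mbp.L, named for myelin basic protein, at 0.265 against 8.0 CPM. With IBET 8 of 14 were higher and 3 lower (median 1.85), where 24.4% of all genes were higher and 25.8% lower. erbb3.L, a neuregulin receptor of crest and glia, was among those lower (38.0 ± 12.2 to 5.43 ± 1.74 CPM, -2.71, adjusted p = 0.00073).

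Sox genes of other families, among them sox3, sox11 and sox21, had another course with IBET. At stage 17, 2 of 7 copies were higher and 3 lower in Wnt/Chrd vehicle explants, and with IBET 7 of 7 were higher (median 4.75, against -0.014 over all genes, of which 24.4% were higher). sox3.S, a SoxB1 gene of neural progenitors, stood at 3.35 ± 2.70 CPM with vehicle and at 430 ± 189.8 CPM with IBET (log2 fold change 7.09, adjusted p = 2e-04), and sox11.L, a SoxC gene of early neurons, at 42.8 ± 20.4 and 378 ± 83.9 CPM (3.22, adjusted p = 0.00051). At stage 13, 2 of 7 were higher with IBET in Wnt/Chrd explants (4 without library a).

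Markers of cell types were counted in the same comparison of Wnt/Chrd with uninjected vehicle explants at stage 17, in which 18.9% of all genes tested were higher and 22.3% lower. Of the neural crest markers 10 of 12 were higher and 1 lower, of the neural progenitor markers 10 of 13 higher and 1 lower, and of the epidermis markers 11 of 14 lower and none higher. The neural crest count includes pax3.L and foxd3.S, which had few or no reads in uninjected explants. Of the blastula markers 1 of 12 was higher and 5 lower, of the otic and other placode markers, which sox9 and sox10 could also share, 2 of 7 lower and none higher, and of the endoderm markers none of 4 was called. Mesoderm had 1 marker tested, which was higher, and notochord and cartilage 1, which was not called. The notochord and cartilage list summed to 1.21 to 2.67 CPM in Wnt/Chrd and 0.867 to 2.21 CPM in uninjected explants, and both shh copies of that list were at 0 in the Wnt/Chrd libraries. With IBET in Wnt/Chrd explants at that stage 10 of 12 crest markers and 12 of 14 epidermis markers were lower, and 9 of 13 neural progenitor markers were higher and 2 lower, where 25.8% of all genes were lower and 24.4% higher. The neural progenitor list includes nrp1, here the symbol of a neuropilin, in its counts and sums. At stage 17 nrp1.S was at 87.1 CPM in Wnt/Chrd and 0.0464 CPM in uninjected vehicle explants. How far the mix of cell types carries the SoxE values was not tested.

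The genes next to SoxE on the chromosomes, by gene order in the RefSeq annotation of the v10.1 assembly, were read in the same comparisons. sstr5.S, a somatostatin receptor gene beside sox8.S, was at 0.665 CPM in Wnt/Chrd and 109.7 CPM in uninjected vehicle explants at stage 17 (log2 fold change -7.36, adjusted p = 1.3e-05), opposite to sox8.S. It was also lower with TSA at stage 13 (-5.66, at 0.122 CPM with TSA), where sox8.S was higher. With IBET in Wnt/Chrd explants at stage 17 sstr5.S was at 0 CPM against 0.665 CPM with vehicle, lower as sox8.S was. sstr5.L, beside sox8.L, was at 0.869 against 8.45 CPM with Wnt/Chrd (-3.27, adjusted p = 0.0032), opposite to sox8.L, and lmf1.L on its other side was not called with Wnt/Chrd, IBET or TSA. kcnj2.S, a potassium channel gene beside sox9.S, was higher with Wnt/Chrd at a low level, at 2.56 against 0.449 CPM (2.50 as fitted). No p-value is given for this, because its mean in uninjected explants lay under the count minimum. With IBET kcnj2.S was lower (-1.77, adjusted p = 0.023). With TSA at stage 13 it was higher (2.82), from 0.172 CPM with vehicle. LOC108704332, beside sox9.L, moved opposite to sox9.L under IBET in Wnt/Chrd explants at stage 17. Its mean rose from a vehicle value of 0.416 to 2.82 CPM (2.84 on the log2 scale as fitted). That vehicle mean too lay under the count minimum, so its p-value is left out. LOC108704332 was not called with Wnt/Chrd at stage 17 or with TSA at stage 9 or 13. polr2f.L, an RNA polymerase subunit gene beside sox10.L, rose by 1.12 on the log2 scale in Wnt/Chrd explants (adjusted p = 0.0015), and for IBET had -0.17 (adjusted p = 0.47). polr2f.S, beside sox10.S, rose by 1.03 (adjusted p = 0.029) and for IBET had -0.23 (adjusted p = 0.34), and both polr2f copies were lower with TSA at stage 13 (-0.62 and -1.27, adjusted p = 0.01 and 0.00014).

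The genes whose level followed SoxE most closely were ranked by Pearson's r of log2 CPM over the 10 group means of the second experiment, among 13589 genes. The 10 groups share stages and treatments and a single high group can set r, so the values only describe. For sox10 the nearest were crisp1.5.S (1.00), astl2e.2.L (0.999), astl2f.S (0.999), astl2d.3.L (0.998) and pcdh8l.S (0.995), each with 87.0 to 152 CPM in Wnt/Chrd vehicle explants at stage 17 and at most 1.32 CPM at stage 13. For sox8 they were ptgds.S (0.968), bnip3.L (0.963), cyp26c1.S (0.960), nrp2.L (0.959) and nrp1.S (0.959), of which the last are neuropilins. For sox9 they were mars1.L (0.968), nfasc.S (0.955), inka1.L (0.955), shb.L (0.953) and gon4l.S (0.949). With Spearman's rho in place of r, 3 of the 5 genes named for sox9 were again among the first 5, 1 of those for sox10 and none of those for sox8.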

How the data were processed

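Total RNA from wild type Xenopus laevis animal pole explants was sequenced in 46 libraries made with a directional kit. The authors trimmed reads with fastp 0.23.2, aligned them to the X. laevis genome 9.2 with STAR 2.6.0 and counted them per gene with HTSeq 1.99.2; the annotation version and the strand setting are not given in the sources used here. The deposited values used are raw counts, 1 column per library, in 18 tables with 49281 genes each. Further tables of the authors' own comparisons (log2 fold changes and p-values) were not used. Per file, 1 row had no gene name and was left out. Reads that HTSeq could not give to 1 gene were not in the gene rows, so 54.3% to 82.8% of the reads tallied in each table were in genes. Reads that match both copies of a gene equally are lost from both.

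Genes were filtered with filterByExpr (minimum count 10, minimum total 15), scaled by TMM and tested with edgeR 4.0.16 (quasi-likelihood F test, in R 4.3.3 with limma 3.58.1) in a fit of the compared groups only. P-values received a Benjamini-Hochberg adjustment across every gene tested (called under 0.05) in 18 comparisons and 7 differences of effects. The SE is the log2 fold change divided by the square root of F. Levels are CPM after TMM scaling over all 46 libraries (factors 0.723 to 1.39). A gene at 0 in a group was set against a floor of 3 counts over that group, which covers counting error only. Whether libraries of a group came from separate clutches is not stated, so p-values measure the spread between these libraries. No libraries of a group were near duplicates (chi-square per degree of freedom at least 8.15). For groups of 3 the smallest p of an exact permutation test is 0.1, so none is given for single genes. The edgeR fit of pairs of groups was tested on simulated counts, with a fixed dispersion and with changed genes that were well expressed. Differences of effects, the block, copy shares and floors were not tested in this way.

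The members and lists were chosen with earlier results of these data known. Every SoxE copy is described. From each of 13 lists the text draws on up to 4 genes with the smallest adjusted p in Wnt/Chrd against uninjected vehicle explants at stage 13 and up to 4 in IBET against vehicle in Wnt/Chrd explants at stage 13, and 5 genes of like pattern are named per SoxE gene, among genes with a mean of at least 5 CPM. The neighbouring genes were chosen by position. The 6 copies matched symbols of the RefSeq annotation of the v10.1 assembly, of which no coordinates are used. Library letters pair the libraries of the second experiment: same-letter libraries deviated together in every comparison of 3 pairs (r of 0.138 to 0.903). The main tests and the shares of all genes called do not use this pairing. It was run as an alternative, the block. They stand in the count tables, not in the labels. Alternatives were DESeq2 size factors, library totals alone, no filter, DESeq2 1.42.0 (Wald test), the letters as a block, all groups of an experiment in 1 fit and leaving out each library. Leaving library a of the Wnt/Chrd vehicle group at stage 13 out of lists and levels, and each library out of the copy ratios, was chosen after the data had been seen.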

Additional observations from a re-analysis of the deposited data

Results flagged for a closer look

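The results below are differences between the effects of an inhibitor in a pair of settings, tested directly and past an adjusted p of 0.05 in edgeR's quasi-likelihood test. Between the inhibitors at stage 13, the effect of IBET less that of TSA was -2.53 on the log2 scale for sox8.L (adjusted p = 4.9e-05) and -1.62 for sox8.S (adjusted p = 0.012). Between stages, the effect of IBET from the 2-cell stage at stage 13 less that at stage 9 was 3.23 for sox8.S (adjusted p = 0.0028) and 1.75 for sox9.S (adjusted p = 0.019), and that of TSA was 3.46 for sox8.S (adjusted p = 0.00028). In that IBET series 1 of the 2 vehicle libraries of stage 13 reached the count minimum for sox8.S. The value of IBET less TSA for sox8.S shares this limit. In Wnt/Chrd explants the effect of IBET at stage 17 less that at stage 13 was -5.38 for sox8.S (adjusted p = 0.0037).

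Between Wnt/Chrd and uninjected explants the effect of IBET differed at stage 13 for sox9.L, by -3.59 (adjusted p = 0.022). At stage 17 it differed by -8.12 for sox8.L (adjusted p = 0.00012), -5.56 for sox9.L (adjusted p = 1e-05) and -7.20 for sox9.S (adjusted p = 0.00017). For sox8.S the difference was -9.96, with no p-value given because no uninjected vehicle library reached the count minimum. For sox9.L and sox9.S at stage 17 both effects passed on their own with opposite signs, higher with IBET in uninjected and lower in Wnt/Chrd explants.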

How the results depend on the processing

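Counts of SoxE copies called include here those that passed the filter through 1 group alone, at stage 17 both sox10 copies. The number called at stage 9 for IBET from the 2-cell stage was 1, 3 with the library letters as a block and 2 with all groups in 1 fit. For IBET in Wnt/Chrd explants at stage 13 it was 1, and 2 with no filter, with DESeq2 and with all groups in 1 fit. For stage 13 against 9 it was 2 in uninjected explants, 1 with library totals alone or no filter, and 3 in Wnt/Chrd explants, 5 with all groups in 1 fit. Those 5 include sox10, which had no read at stage 9 and whose reads at stage 13 came almost all from library a. For stage 17 against 13 in Wnt/Chrd explants with IBET the number called was 0, and 1 with the block. For IBET less TSA it was 0 at stage 9, and 2 with no filter, DESeq2, the block or all groups in 1 fit, and 2 at stage 13, 1 with all groups in 1 fit. For the TSA effect between stages it was 1, and 2 with library totals alone or no filter. For IBET in Wnt/Chrd less uninjected explants at stage 13 it was 1, 2 with no filter or all groups in 1 fit and 3 with DESeq2. For IBET between stages in Wnt/Chrd explants it was 1, and 2 with the block. Beside the values given with the results, the block changed a call for sox8.L and sox8.S (adjusted p = 0.006 and 0.0019) with IBET and sox8.L with TSA (1.8e-10) at stage 9, and for IBET less TSA for sox8.L (0.00018) and sox9.S (2e-04) at stage 9 and sox9.S (0.0018) at stage 13. In these groups of 2 libraries the letters are only a hint of pairing (r of 0.326 to 0.773). The block changed no other call. DESeq2 and the fit of all groups also called sox9.S in Wnt/Chrd against uninjected vehicle explants at stage 13 (0.040 and 0.024), and the latter did not call sox9.L for IBET in Wnt/Chrd explants at stage 17 (0.22). The causes were not tested.

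With 1 library left out, the copies called ranged as follows: 0 to 1 for IBET from the 2-cell stage at stage 9, 3 to 4 for TSA at stage 9, 0 to 2 for Wnt/Chrd against uninjected vehicle explants at stage 13, 1 to 2 for IBET in Wnt/Chrd explants at stage 13 and 5 to 6 at stage 17, 2 to 3 and 3 to 4 for IBET in uninjected explants at stages 13 and 17, 1 to 2 and 3 to 4 for stage 13 against 9 in uninjected and Wnt/Chrd explants, 1 to 3 and 0 to 6 for stage 17 against 13 with vehicle, 1 to 3 for IBET less TSA at stage 13, 1 to 2 and 1 to 3 for the IBET and TSA effects between stages, 0 to 1 for IBET in Wnt/Chrd less uninjected explants at stage 13, and 1 to 4 for IBET between stages in Wnt/Chrd explants. The IBET shift of the .L to .S ratio ranged from -3.85 to -3.44 for sox8 and from 2.57 to 2.94 for sox9.

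Some values that were not called changed sign. For Wnt/Chrd against uninjected explants with IBET at stage 17, sox9.L was -0.016 with DESeq2 size factors, -0.0031 with no filter, -0.015 with DESeq2 and -0.0089 with all groups in 1 fit, and sox8.L was 0.11 with the block. sox9.L was 0.13 with library totals alone for TSA between stages. With 1 library left out, sox9.S ranged from -0.24 to 0.44 for IBET from the 2-cell stage at stage 9. For Wnt/Chrd against uninjected explants the ranges were -0.090 to 1.03 (sox8.S), -0.35 to 0.35 (sox9.L) and -0.15 to 0.40 (sox9.S) at stage 9, -0.53 to 0.16 (sox8.S) and -0.72 to 0.16 (sox9.S) with IBET at stage 13, and -0.61 to 0.42 (sox8.L), -0.16 to 0.23 (sox9.L) and -0.55 to 0.16 (sox9.S) with IBET at stage 17. For IBET they were -0.21 to 0.41 (sox8.S) and -0.34 to 1.05 (sox9.L) in Wnt/Chrd explants and -0.13 to 1.19 (sox9.S) in uninjected explants at stage 13. For stage 17 against 13 with vehicle in Wnt/Chrd explants sox9.L ranged from -0.11 to 1.21. Between stages they were -0.39 to 1.06 (sox8.L) and -0.26 to 0.41 (sox9.L) for the IBET effect and -1.16 to 0.0064 (sox8.L) for the TSA effect. Length-corrected .L shares were not run, since the lengths at hand belong to another assembly.

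Over all genes, calls that moved by more than 1.5 times are given here in the order no filter, DESeq2, block and all groups in 1 fit where all of these moved. They went from 498 to 991, 995, 2526 and 1090 for IBET from the 2-cell stage at stage 9, from 13 to 96, 122, 154 and 57 and from 47 to 278, 573, 198 and 297 for Wnt/Chrd against uninjected explants with IBET at stages 13 and 17, from 218 to 478, 510, 1343 and 502 for IBET less TSA at stage 9, from 524 to 811, 1305, 997 and 1213 for IBET in Wnt/Chrd less uninjected explants at stage 13, and from 81 to 259, 1324, 805 and 1208 for IBET between stages in Wnt/Chrd explants. With DESeq2, the block and all groups in 1 fit they went from 446 to 950, 2981 and 1114 for TSA at stage 9, from 2479 to 4199, 5212 and 4603 for Wnt/Chrd against uninjected vehicle explants and from 3163 to 5633, 6272 and 9928 for IBET in Wnt/Chrd explants at stage 13, and from 2850 to 5857, 6239 and 6078 for stage 17 against 13 in Wnt/Chrd vehicle explants. At stage 9 Wnt/Chrd against uninjected explants went from 5 to 22 with DESeq2 and 465 with the block. IBET in Wnt/Chrd less uninjected explants at stage 17 went from 3060 to 4789 with the block. Stage 17 against 13 in Wnt/Chrd explants with IBET went from 1 to 2 with DESeq2 size factors, 245 with library totals alone, 409 with no filter, 2125 with DESeq2, 7643 with the block and 2695 with all groups in 1 fit. With 1 library left out, calls over all genes ranged from 0 to 8665 for stage 17 against 13 in Wnt/Chrd vehicle explants, from 644 to 5732 for IBET in Wnt/Chrd explants at stage 13, from 737 to 4024 for Wnt/Chrd against uninjected vehicle explants at stage 13 and from 4 to 2637 for IBET between stages in Wnt/Chrd explants. The highest was without Wnt/Chrd vehicle library a of stage 13 for the comparisons with vehicle alone and without Wnt/Chrd IBET library a of stage 13 for those of IBET. Other ranges that passed 1.5 times were 0 to 5077 for stage 17 against 13 in Wnt/Chrd explants with IBET, 3711 to 8324 in uninjected vehicle explants, 279 to 690 for TSA at stage 9, 2 to 4, 2 to 10 and 7 to 329 for Wnt/Chrd against uninjected explants at stage 9 and with IBET at stages 13 and 17, 68 to 167 and 4401 to 6291 for IBET less TSA at stages 9 and 13, 4790 to 6261 for the IBET effect between stages and 189 to 920 for IBET in Wnt/Chrd less uninjected explants at stage 13.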
